A study of Mus musculus with 8 samples.

Results

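Interleukin-15 (IL-15) and the receptor chains of the common gamma chain cytokine family were followed in mouse bone marrow-derived macrophages with and without Cullin 3. The members were the genes Il15, Il15ra, Il2rg, Il2ra, Il4ra, Il7r, Il21r and Il13ra1. They were found by their symbol among the non-control probes of the array, and made up 8 of the 27973 genes tested and 10 of the 55681 probes. Cullin 3 (Cul3) holds together ubiquitin ligases that mark proteins for degradation, and the study asked what it does in macrophages. Macrophages were grown from the marrow of female mice aged 6 to 8 weeks in medium conditioned by L929 cells for 6 days. L929 fibroblasts release CSF1, the macrophage growth factor. The 4 groups were wild type (WT) cells left untreated, WT cells given lipopolysaccharide (LPS, a bacterial cell-wall component that activates Toll-like receptor 4) for 6 hours, Cullin 3 knockout (KO) cells left untreated, and KO cells given LPS for 6 hours. Each group held 2 samples, and each sample went on 1 array of a single slide. The labels do not state the strain, which part of Cul3 was deleted or what drove the deletion. They do not say that the 2 replicates came from separate animals or cultures either, so p-values measure only how far these samples differ, which may be technical variation.

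The cytokines of this family share the common gamma chain, which Il2rg encodes, and pair it with a chain of their own that sets specificity. Binding brings together the kinases JAK1 and JAK3, which activate STAT5 for IL-2, IL-7 and IL-15, STAT3 for IL-21 and STAT6 for IL-4. Macrophages are a main source of IL-15, which they show to neighbouring lymphocytes bound to IL-15 receptor alpha, and interferons and Toll-like receptor ligands are known to induce the Il15 gene. The IL-4 receptor chain also pairs with IL-13 receptor alpha 1 in a receptor for both IL-4 and IL-13, and the IL-7 receptor chain also pairs with Crlf2 in the receptor for TSLP.

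Il15ra and Il4ra had 2 probes each and the other members 1. Their first 30 bases are shown with that of Il15, because the 2 probes of a gene gave different sizes of change. Each probe was 60 bases long, and all are written 5′ to 3′ in the sense of the transcript.

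Il15, probe A_52_P15461 (chr8:84858403-84858462, minus strand): tgcaggttattttacatgagtacagtaaca
Il15ra, probe A_55_P2060707 (chr2:11655416-11655475, plus strand): gacaaaaccaaactcagtgactatatatgt
Il15ra, probe A_55_P2041738 (chr2:11654809-11654868, plus strand): aaaccatggaaacagtaccaatgactgtga
Il4ra, probe A_55_P2017789 (chr7:132722922-132722981, plus strand): acctgttgggaattccaaccctcaccagtc
Il4ra, probe A_55_P1966189 (chr7:132712550-132712609, plus strand): atcccgaggaacagtgccagcactgtgtgt

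The positions are those of the array annotation on mm9. The single probes of the other members lay at chr2:11614744-11614803 (Il2ra), chrX:98460130-98460189 (Il2rg, minus strand), chr15:9435976-9436035 (Il7r, minus strand), chr7:132776725-132776784 (Il21r) and chrX:33710154-33710213 (Il13ra1). Their exons and untranslated regions were not analysed here. A gene is represented below by its probe with the highest mean level, which was A_55_P2060707 for Il15ra and A_55_P2017789 for Il4ra. All 10 probes were well above background on all 8 arrays and none was saturated.

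The 250 bases upstream of the annotated start were searched for 4 motifs on both strands, because 7 of the 8 members rose together with LPS. Windows from RefSeq (GRCm38.p6) were searched for 7 members, 8 windows in all with 2 for Il15ra, and Il15 was not searched here. The motifs were the interferon-stimulated response element (ISRE, the letters GAAA repeated after a gap of 2 bases), the gamma-activated site bound by STAT factors (GAS, TTCNNNGAA), the NF-kappaB consensus, and the antioxidant response element bound by NRF2 (ARE, TGACNNNGC), a factor that Cullin 3 ligases degrade. The 4 windows that held a match are printed 5′ to 3′ along the gene, with the matched bases in capitals.

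Il15ra (chr2:11705462-11705711, plus strand; ARE on the reverse strand, from base -32): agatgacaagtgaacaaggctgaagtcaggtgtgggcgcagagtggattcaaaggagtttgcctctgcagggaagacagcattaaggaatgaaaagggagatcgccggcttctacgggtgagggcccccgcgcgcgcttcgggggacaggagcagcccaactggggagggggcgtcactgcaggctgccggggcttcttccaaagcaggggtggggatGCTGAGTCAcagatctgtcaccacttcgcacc
Il2ra (chr2:11642542-11642791, plus strand; overlapping NF-kappaB matches from bases -201 and -200): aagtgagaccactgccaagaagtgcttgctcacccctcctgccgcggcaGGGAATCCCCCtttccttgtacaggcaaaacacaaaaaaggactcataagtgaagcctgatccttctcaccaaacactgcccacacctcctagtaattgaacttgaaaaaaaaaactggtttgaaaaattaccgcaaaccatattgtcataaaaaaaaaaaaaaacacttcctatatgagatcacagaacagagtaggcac
Il4ra (chr7:125552021-125552270, plus strand; ARE from base -60): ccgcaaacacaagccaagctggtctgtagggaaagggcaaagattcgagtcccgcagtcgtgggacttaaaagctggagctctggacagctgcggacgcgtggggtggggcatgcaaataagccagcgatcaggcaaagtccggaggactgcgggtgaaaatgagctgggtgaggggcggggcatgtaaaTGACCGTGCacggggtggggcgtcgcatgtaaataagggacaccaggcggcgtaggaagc
Il7r (chr15:9529877-9530126, minus strand; GAS from base -142): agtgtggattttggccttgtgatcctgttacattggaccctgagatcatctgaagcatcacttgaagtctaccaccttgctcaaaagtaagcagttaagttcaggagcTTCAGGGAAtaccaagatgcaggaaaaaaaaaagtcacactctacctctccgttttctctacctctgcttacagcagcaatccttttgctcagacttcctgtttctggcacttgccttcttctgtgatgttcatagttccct

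Of 32851 RefSeq promoter windows of that length, 2.98% held the ISRE, 7.02% the GAS, 3.90% the NF-kappaB consensus and 10.2% the ARE. None of the 8 windows searched, which leave out Il15, held the letters of the ISRE. A match describes letters only and is not a measured binding site.

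All arrays shared 1 scan. The 75th percentile of the processed signal was 675.6 to 1553 per array and 60.9% to 73.7% of spots were well above background. Levels are given as log2 processed signal minus the log2 of the array's own 75th percentile. WT and KO arrays occupied separate rows of the slide, and untreated and LPS arrays in different columns, so row and genotype, and column and LPS, cannot be told apart. Cul3 itself served as the check on the labels. Its level was 1.78 and 1.80 in untreated WT, 1.38 and 1.28 in untreated KO, 2.40 and 2.43 in WT with LPS, and 1.92 and 1.88 in KO with LPS. Both KO arrays lay below both WT arrays in each state. The KO minus WT difference was -0.46 ± 0.11 (SE, n = 2 per group) without LPS (limma adjusted p = 0.0903) and -0.52 ± 0.11 with LPS (adjusted p = 0.0302). Whether the probe lies in the deleted part is not known, so its signal gives no measure of the residual transcript.

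LPS raised 7 of the 8 members in both genotypes, and with LPS all 8 were lower in KO than in WT cells. In WT cells 7 members rose and none fell with LPS, where 57.7% of all genes passed the test (35.7% higher, 22.0% lower). In KO cells 7 rose and 1, Il7r, fell, where 48.5% of all genes passed (27.9% higher, 20.6% lower). With LPS, 8 members fell in KO against WT cells and none rose, where 16.4% of all genes passed (7.87% higher, 8.49% lower). Without LPS only Il4ra passed, higher in KO, where 3.29% of all genes passed (2.17% higher, 1.12% lower). The LPS response itself was smaller in KO for 4 members, Il2ra, Il15, Il4ra and Il13ra1, and larger for none, where 4.37% of all genes passed (1.51% higher, 2.86% lower). The split of all called genes moved with the scaling or background setting. The share that was higher in KO cells with LPS was 48.1% of the called genes, and 38.0% to 83.7% with quantile normalization, median centring, no scaling, normexp or the deposited values. Under the same settings it was 55.8% to 85.7% without LPS (65.9% here) and 31.9% to 54.2% for the difference in response (34.6% here). The share higher with LPS was 22.3% to 74.6% in WT (61.9% here) and 22.4% to 71.1% in KO cells (57.5% here). The comparisons share arrays and are not independent of each other.

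**Figure D1:**
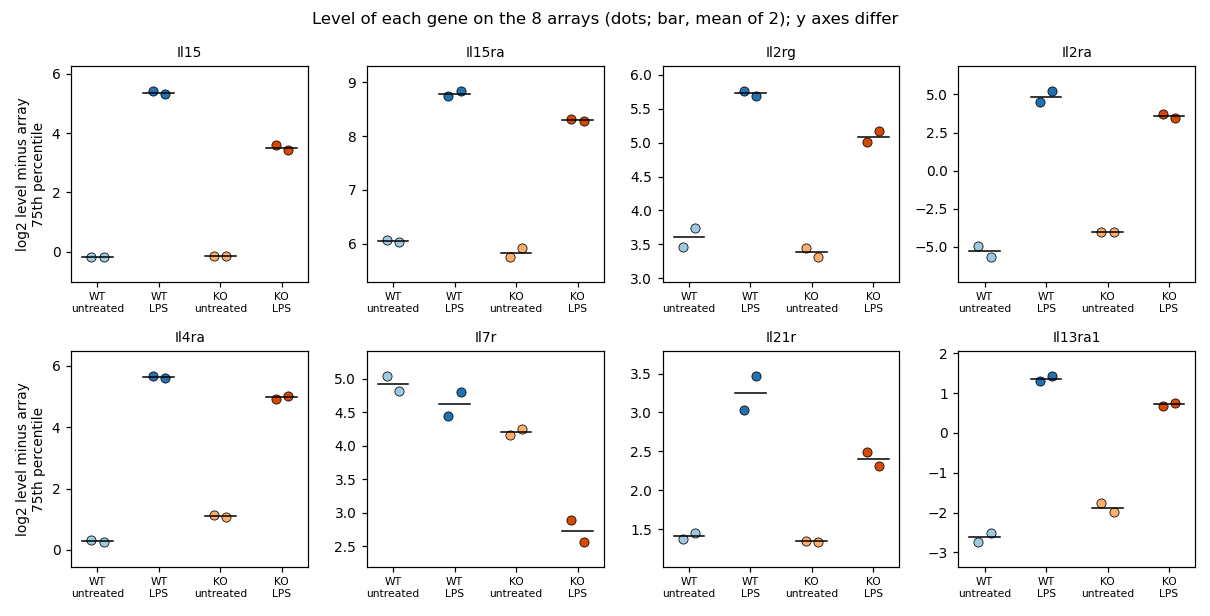
Log2 level of each member relative to the array's 75th percentile (vertical axis, its range differs by gene) on the 8 arrays, by genotype and LPS. Dots are arrays and bars the mean of 2. With LPS both KO dots lie below both WT dots in all 8 panels, and Il7r is the only gene whose LPS dots do not lie above its untreated dots. Without LPS the dots of the genotypes do not overlap in any of the 8 panels either, though only 1 gene was called. With 2 arrays per group such separation alone says little, and its share over all genes was not computed.

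Il15 encodes the ligand. Its level was -0.18 and -0.17 in untreated WT, -0.15 and -0.13 in untreated KO, 5.42 and 5.33 in WT with LPS, and 3.59 and 3.42 in KO with LPS. The order was thus WT with LPS, KO with LPS, then both untreated groups, which lay close together. As processed signal, this was 1032 to 1403 on the untreated arrays, 27120 and 32780 in WT with LPS, and 9407 and 11380 in KO with LPS. LPS raised Il15 by 5.55 ± 0.12 log2 in WT (46.7-fold, limma adjusted p = 1.279e-06) and by 3.64 ± 0.12 in KO cells (12.5-fold, adjusted p = 5.685e-06). With LPS, Il15 was 3.65-fold lower in KO cells (-1.87 ± 0.12, adjusted p = 0.00124). Within each slide column the KO minus WT difference with LPS was -1.83 and -1.91. Without LPS the difference was 0.03 with a 95% interval from -0.26 to 0.33 (adjusted p = 0.896). The response to LPS was smaller in KO cells (KO minus WT -1.90 ± 0.17, adjusted p = 0.0122). The fall with LPS held in all 24 alternative analyses. The difference in response lost its call without KO LPS replicate 2 (adjusted p = 0.0639), KO untreated replicates 1 and 2 (0.0646 and 0.0770) or WT untreated replicates 1 and 2 (0.0614 and 0.0676).

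Il15ra encodes IL-15 receptor alpha, which binds IL-15 with high affinity and presents it to other cells. Its chosen probe, A_55_P2060707, was at 6.08 and 6.03 in untreated WT, 5.75 and 5.92 in untreated KO, 8.74 and 8.83 in WT with LPS, and 8.32 and 8.28 in KO with LPS. By this probe LPS raised Il15ra by 2.73 ± 0.12 in WT and 2.46 ± 0.12 in KO cells, and the responses did not differ detectably (difference -0.27, 95% interval -0.69 to 0.15, limma adjusted p = 0.424). With LPS it was 1.40-fold lower in KO cells (-0.49 ± 0.12, adjusted p = 0.0446), and that call was lost without any 1 of the 8 arrays (adjusted p 0.0608 to 0.175). With quantile normalization the difference was -0.12 (adjusted p = 0.533) and with no scaling between arrays -0.15 (adjusted p = 0.636), so this probe alone carries the call only under some settings.

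The other Il15ra probe, A_55_P2041738, moved more. It was at -3.26 and -3.11 in untreated WT, -3.16 and -3.31 in untreated KO, 3.45 and 3.55 in WT with LPS, and 1.82 and 1.81 in KO with LPS. The untreated groups overlapped and the LPS groups did not. In the fit that treated each probe separately, LPS raised it by 6.69 ± 0.13 in WT and 5.05 ± 0.13 in KO cells. It was 3.21-fold lower in KO cells with LPS (-1.68 ± 0.13, limma adjusted p = 0.00209), and its response was smaller in KO cells (KO minus WT -1.63 ± 0.19, adjusted p = 0.0238). Both probes thus went the same way with LPS, but the size of the genotype difference, and whether the responses differed, depended on the probe. The cause of this disagreement was not tested. With the mean of both probes the responses differed (KO minus WT -0.95, limma adjusted p = 0.0323). The processed signal of the chosen probe was 76730 to 91420 without and 272900 to 327600 with LPS.

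**Figure D2:**
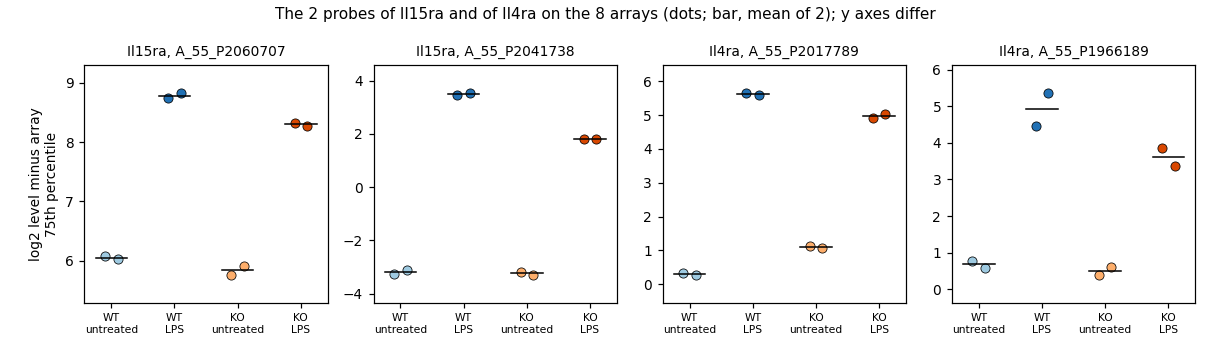
Log2 level relative to the array's 75th percentile (vertical axis, its range differs by panel) of both probes of Il15ra and both of Il4ra on the 8 arrays, by genotype and LPS. Dots are arrays and bars the mean of 2. The gap between WT and KO with LPS is -0.49 log2 for the chosen and -1.68 for the other Il15ra probe, and the untreated rise in KO is seen with only 1 Il4ra probe.

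Il2rg encodes the common gamma chain itself. Its level was 3.47 and 3.74 in untreated WT, 3.46 and 3.32 in untreated KO, 5.75 and 5.69 in WT with LPS, and 5.01 and 5.17 in KO with LPS. The LPS groups stood apart by more than their spread, whereas the higher untreated KO array nearly met the lower WT array. LPS raised Il2rg by 2.12 ± 0.15 in WT (4.33-fold, limma adjusted p = 5.496e-05) and by 1.70 ± 0.15 in KO cells (3.25-fold, adjusted p = 0.000187). With LPS it was 1.55-fold lower in KO cells (-0.63 ± 0.15, adjusted p = 0.0356). The difference in response was -0.41 with a 95% interval from -0.92 to 0.09 (adjusted p = 0.313). The call with LPS was lost without either LPS array of WT or KO or either untreated KO array (adjusted p 0.0728 to 0.161), and with no scaling between arrays the difference was -0.29 (adjusted p = 0.468).

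Il2ra encodes the IL-2 receptor alpha chain (CD25), known from activated and regulatory T cells. It had the largest LPS response of the members. Its level was -4.93 and -5.66 in untreated WT, -4.05 and -4.05 in untreated KO, 4.50 and 5.21 in WT with LPS, and 3.69 and 3.45 in KO with LPS. The genotypes did not overlap in either state, but their order turned, with KO above WT before and below WT after LPS. The untreated signals were low, 27.7 and 38.4 in WT and 76.8 and 93.7 in KO cells, against 9605 to 24960 with LPS. LPS raised Il2ra by 10.15 ± 0.31 in WT (limma adjusted p = 2.87e-06) and 7.62 ± 0.31 in KO cells (adjusted p = 1.079e-05). With LPS it was 2.44-fold lower in KO cells (-1.28 ± 0.31, adjusted p = 0.0408), by -0.81 and -1.76 within the slide columns. The untreated difference of 1.24 ± 0.31 did not pass (adjusted p = 0.0928), though it did in 3 of 23 alternatives. The response was smaller in KO cells (KO minus WT -2.53 ± 0.44, adjusted p = 0.0378). Both values depended on the background correction. With normexp the untreated difference was 0.46 and the difference in response -1.66. The genotype call with LPS was lost without KO LPS replicate 1 or 2 (adjusted p = 0.109 and 0.158), WT LPS replicate 2 (0.121) or KO untreated replicate 1 or 2 (0.0752 each), and the call on the response was kept only without WT LPS replicate 1 (0.0333, against 0.0708 to 0.135).

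Il4ra encodes the chain that binds IL-4 and, with either partner, signals through STAT6. Its chosen probe, A_55_P2017789, was at 0.32 and 0.26 in untreated WT, 1.14 and 1.08 in untreated KO, 5.67 and 5.61 in WT with LPS, and 4.93 and 5.02 in KO with LPS. The 4 groups did not overlap, and KO lay above WT without LPS and below it with LPS. Without LPS it was 1.76-fold higher in KO cells (0.82 ± 0.12, limma adjusted p = 0.0235), by 0.81 and 0.82 within the slide columns. LPS raised it by 5.35 ± 0.12 in WT (40.7-fold, adjusted p = 1.273e-06) and 3.87 ± 0.12 in KO cells (14.6-fold, adjusted p = 4.327e-06). With LPS it was 1.58-fold lower in KO cells (-0.66 ± 0.12, adjusted p = 0.0154), and the response was smaller (KO minus WT -1.48 ± 0.16, adjusted p = 0.0172).

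The other Il4ra probe, A_55_P1966189, did not show the untreated rise. It was at 0.78 and 0.59 in untreated WT, 0.38 and 0.59 in untreated KO, 4.46 and 5.37 in WT with LPS, and 3.87 and 3.36 in KO with LPS. The untreated groups overlapped, and the difference was -0.20 (95% interval -0.99 to 0.60, limma adjusted p = 0.781). LPS raised it by 4.23 ± 0.33 in WT and 3.13 ± 0.33 in KO cells, and with LPS the genotype difference was -1.30 ± 0.33, just short of the threshold (adjusted p = 0.0504). With the mean of both probes the untreated difference was 0.31 (adjusted p = 0.372). The untreated call was also lost without any array except a WT LPS array (adjusted p 0.0562 to 0.157). The call of the chosen probe with LPS was lost without KO LPS replicate 1 or 2 (adjusted p = 0.0870 and 0.0690), with no scaling between arrays (-0.32, adjusted p = 0.335) and with the deposited values (-0.29, adjusted p = 0.306), and that on the response without any array except a WT LPS array (0.0669 to 0.0877).

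Il13ra1 encodes the partner of the IL-4 receptor chain in the receptor for IL-4 and IL-13. Its level was -2.73 and -2.50 in untreated WT, -1.77 and -1.98 in untreated KO, 1.29 and 1.43 in WT with LPS, and 0.69 and 0.75 in KO with LPS. As for Il2ra and the chosen Il4ra probe, both KO arrays lay above both WT arrays without LPS and below them with LPS. The untreated difference of 0.74 ± 0.15 did not pass (limma adjusted p = 0.0540), though it did in 5 of 24 alternatives. LPS raised Il13ra1 by 3.98 ± 0.15 in WT (15.8-fold, adjusted p = 4.866e-06) and 2.59 ± 0.15 in KO cells (6.03-fold, adjusted p = 3.29e-05). With LPS it was 1.56-fold lower in KO cells (-0.64 ± 0.15, adjusted p = 0.0344), and the response was smaller (KO minus WT -1.38 ± 0.21, adjusted p = 0.0280). The genotype call with LPS was lost without any array except a WT untreated array (adjusted p 0.0559 to 0.145), and that on the response without any array except WT LPS replicate 1 (0.0627 to 0.114). With LPS the difference was -0.30 with no scaling between arrays (adjusted p = 0.452) and -0.35 with the deposited values (adjusted p = 0.257).

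Il7r encodes the IL-7 receptor alpha chain. It was the member that did not rise with LPS. Its level was 5.04 and 4.81 in untreated WT, 4.15 and 4.25 in untreated KO, 4.44 and 4.81 in WT with LPS, and 2.90 and 2.57 in KO with LPS. The 2 KO arrays with LPS were the lowest of the 8, followed by the 2 untreated KO arrays. With LPS, Il7r was 3.71-fold lower in KO cells (-1.89 ± 0.19, limma adjusted p = 0.00319), by -1.54 and -2.24 within the slide columns, and this held in all 24 alternative analyses. Without LPS the difference of -0.72 ± 0.19 did not pass (adjusted p = 0.101), though it did in 4 of 24 alternatives. LPS lowered Il7r 2.76-fold in KO cells (-1.47 ± 0.19, adjusted p = 0.00109). In WT cells its change of -0.30 ± 0.19 did not pass (adjusted p = 0.218). That last value depended on the scaling. Relative to the 75th percentile the median gene rose by 0.30 with LPS in WT and 0.19 in KO cells, whereas with no scaling it was at -0.52 and -0.43. Il7r in WT cells was at -1.13 with no scaling (adjusted p = 0.00253), -0.96 with quantile normalization (0.00199) and -0.67 with arrays centred on their medians (0.0331). The difference in response was -1.17 ± 0.27 and did not pass (adjusted p = 0.0668). It did pass with normexp (-1.21, adjusted p = 0.00808) and the deposited values (-1.02, 0.0492). The same held with a filter on all 8 arrays (0.0376) and with trended and robust moderation (0.0211).

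Il21r encodes the IL-21 receptor chain. Its level was 1.37 and 1.44 in untreated WT, 1.35 and 1.34 in untreated KO, 3.03 and 3.47 in WT with LPS, and 2.49 and 2.31 in KO with LPS. The genotypes did not overlap in either state, but the untreated difference of -0.06 (95% interval -0.48 to 0.35) was smaller than its error. LPS raised Il21r by 1.84 ± 0.17 in WT (3.59-fold, limma adjusted p = 0.000195) and 1.06 ± 0.17 in KO cells (2.08-fold, adjusted p = 0.00299). With LPS it was 1.80-fold lower in KO cells (-0.85 ± 0.17, adjusted p = 0.0238). The difference in response of -0.79 ± 0.24 did not pass (adjusted p = 0.132). The genotype call with LPS was lost without KO LPS replicate 1 or 2 (adjusted p = 0.0721 and 0.117) or KO untreated replicate 1 or 2 (0.0558 each). With no scaling the difference was -0.51 (adjusted p = 0.172), and the LPS response in KO cells was 0.44 (0.153).

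**Figure D3:**
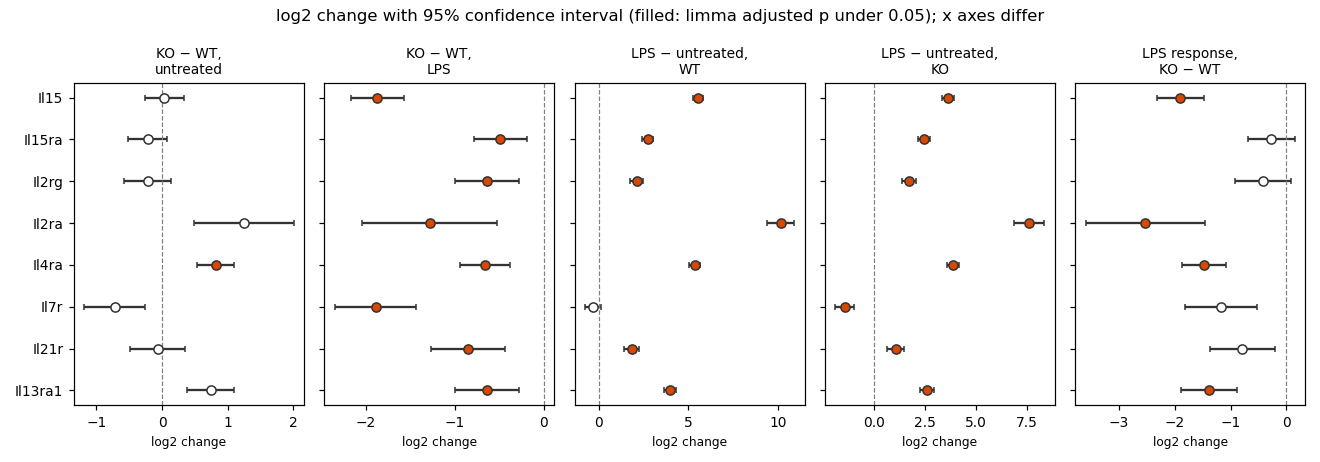
Log2 change of each member in the 5 comparisons (horizontal axis, its range differs by panel) with its 95% confidence interval from limma. Filled points had an adjusted p under 0.05. All 8 points are filled and below 0 for KO minus WT with LPS, 1 is filled without LPS, and 4 are filled for the difference in response.

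Over the 8 members the median KO minus WT change was -0.02 without LPS, where the median of all genes was 0.06, and -0.76 with LPS, where it was -0.07. The median LPS response was 3.35 in WT and 2.53 in KO cells. Il15 and Il7r had the largest differences with LPS and lost the call in no alternative. The other 6 were called in 4 to 17 of the 23 or 24 alternatives run for each, though none turned its direction there. With no scaling between arrays, 2 of the 8 were called lower. The median of all genes for KO minus WT with LPS was then 0.27, and every member stayed below that value.

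The genes around the receptor did not all move with the members. Of 4 other receptor chains tested, 1 rose and 0 fell in KO against WT cells with LPS. It was Il2rb, the signalling chain shared by the IL-2 and IL-15 receptors, at -5.46 and -5.05 in WT and -4.02 and -3.91 in KO with LPS (1.29 higher, limma adjusted p = 0.0140). Il2rb was well above background on all 8 arrays but dim. The lowest level well above background was -6.18 and -5.63 on the 2 WT arrays with LPS. Without LPS Il2rb was at -6.12 and -5.60 in WT and -5.31 and -5.27 in KO cells. It rose with LPS in KO cells (1.33, adjusted p = 0.00313). Its change in WT cells was 0.61 (adjusted p = 0.0530), and the responses did not differ detectably (0.72, adjusted p = 0.245). Crlf2, the TSLP receptor chain, rose with LPS by 1.32 in WT and 0.66 in KO cells. Of 6 other ligands of the family tested, 4 rose and 1 fell with LPS in WT and 3 rose and 1 fell in KO cells, and between genotypes 0 passed without LPS and 1, Tslp, was lower in KO with LPS (-0.64, adjusted p = 0.0276). Il7, the ligand of Il7r, rose with LPS by 3.06 in WT and 2.58 in KO cells. Tslp and Il13 were not well above background without LPS. Tslp was at least 32.5-fold higher with LPS in WT and at least 24.5-fold in KO cells, and Il13 at least 3.23-fold and at least 3.90-fold, each against the higher of its own untreated signal and the lowest signal well above background on the array.

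Of 9 JAK kinases and STAT factors, 8 rose and 1, Stat6, fell with LPS in both genotypes. Stat6, the factor downstream of IL-4, fell by 1.46 in WT and was at -0.82 in KO cells (limma adjusted p = 9.171e-05 and 0.00160). With LPS, Stat5a (-0.68) and Stat3 (-0.54) were lower and Stat6 (0.49) higher in KO than in WT cells, and 0 passed without LPS. Their median with LPS was -0.31. Of 9 STAT5 targets and feedback inhibitors, 8 rose and 1, the kinase gene Pim2, fell with LPS in both genotypes. The signalling inhibitors Socs2 (-1.45, adjusted p = 0.00297) and Socs1 (-0.68) were lower in KO cells with LPS and 0 were higher. The Socs2 level was -0.01 and -0.29 in WT and -1.55 and -1.66 in KO cells with LPS. Its response was smaller in KO cells (KO minus WT -1.93, adjusted p = 0.0149). Pim2 was 1.42 higher in untreated KO cells (adjusted p = 0.0113).

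STAT6 targets of IL-4 and IL-13 went both ways. Of 13 tested, 4 rose and 1 fell in KO cells without LPS, and 4 rose and 4 fell with LPS. Arg1, which hydrolyses arginine, was higher by 2.32 without and 2.57 with LPS (limma adjusted p = 0.00929 and 0.00291), and the mannose receptor Mrc1 by 1.22 and 0.80. The chitinase-like gene Chil3 was 1.63 higher without LPS and the chemokine Ccl24 1.34. The T cell-attracting chemokines Ccl17 and Ccl22 were at -2.36 and -1.54 in KO minus WT cells with LPS (adjusted p = 0.00394 and 0.00930), and Mgl2 was lower in both states (-0.70 and -0.75). LPS raised 10 of the 13 and lowered 0 in each genotype.

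Regulators of the Il15 and Il15ra genes, a list of interferon regulatory factors, interferon beta and its receptor and NF-kappaB subunits, included 15 tested genes. LPS raised 14 in WT and 12 in KO cells and lowered 0. With LPS 6 were lower and 0 higher in KO cells, and without LPS 0 passed. Interferon beta (Ifnb1) was at 0.06 and 0.23 in WT and -2.40 and -2.44 in KO cells with LPS (-2.57, limma adjusted p = 0.0188) and not well above background without it. The interferon regulatory factor Irf8 was at 7.32 and 7.18 in WT and 5.72 and 6.05 in KO cells with LPS (-1.36, adjusted p = 0.00423), and its LPS response in KO cells, 0.16, did not pass (adjusted p = 0.411). The NF-kappaB subunit Rel (-1.20) and Irf1 (-1.11) were also lower in KO cells with LPS, and the responses of Irf1 (-1.53), Irf8 (-1.48), Irf2 (-1.34) and Rel (-1.09) were smaller. The list's median with LPS was -0.60 against -0.07 for all genes.

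**Figure D4:**
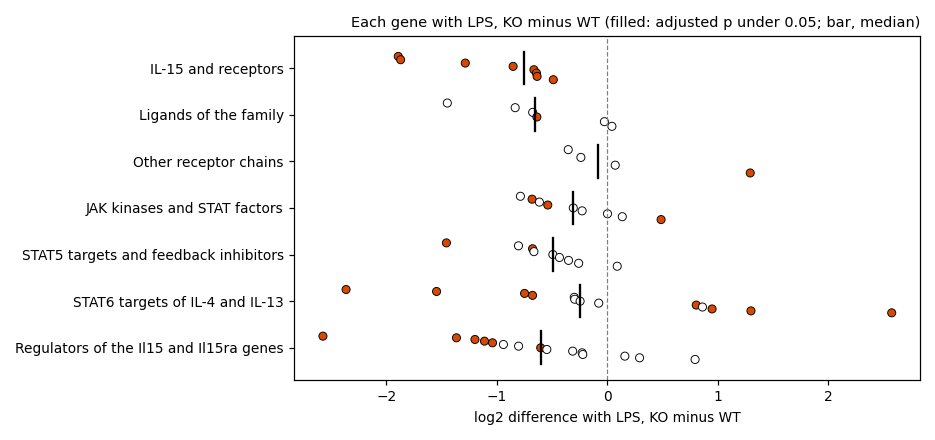
Log2 difference between KO and WT cells with LPS (horizontal axis) for each tested gene of 7 lists. Points are genes, filled where the limma adjusted p was under 0.05, and bars are list medians. All 8 member points are filled and below 0, while the STAT6 targets have filled points on both sides.

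The genes most like each member were those with the smallest root mean square difference of gene-centred log2 levels over the 8 arrays, among 13478 named genes well above background on all of them. This is a description over arrays that fall in 4 groups. Nearest to Il15 were Ifit3b (0.20), Stx11 (0.20), Mid1 (0.20), Mycl (0.22) and the costimulatory gene Cd86 (0.26). Nearest to Il4ra were the interferon-induced Ifi47 (0.10), the chemokine receptor gene Ccr7 (0.11), the chemokine gene Ccl3 (0.17), Ifi211 (0.19) and Snn (0.19). Nearest to Il2ra were the costimulatory receptor gene Cd40 (0.31), Scimp (0.34), Gbp5 (0.41), Mmp13 (0.45) and Tnfsf15 (0.49). Nearest to Il21r were Fam133b (0.09), Sptlc2 (0.10), the kinase gene Tyk2 (0.11), Yipf6 (0.11) and Vcpip1 (0.12). Those of Il15ra were Fam234b, Blcap, Hpca, B4galt5 and Fryl (0.06 to 0.09), of Il2rg Olfr1131, Rasa4, Ist1, Coro2a and Cnp (0.08 to 0.12), and of Il13ra1 Ttc39b, Ndufb1, Tuba8, Phactr1 and Rapgef2 (0.11 to 0.18). For Il7r they were Trav14n-3 and Trav14d-2, near-identical gene copies whose probes can share signal, then Spa17, Gpr176 and Depdc1b (0.14 to 0.25). Among the members themselves the closest pair was Il2rg and Il21r (0.30), followed by Il15ra and Il2rg (0.37).

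Markers of the labelled cell type were present. All 10 macrophage markers were well above background in all 4 groups. The summed level of 9 of them, relative to the 75th percentile, was 716 to 770 in untreated WT, 662 to 723 in untreated KO, 1350 to 1360 in WT with LPS and 1160 to 1220 in KO with LPS. Il2ra, Il7r and Il2rg are also expressed by lymphocytes. Of 10 T cell markers, Cd3g, Bcl11b and Tcf7 were not well above background in any group. Cd3d and Cd8a were well above it on both arrays only in untreated KO. With LPS, 3 of 7 T cell markers tested (Lck, Cd28 and Cd4) were lower and 0 higher in KO cells. The T cell sum was 35.8 to 39.2 in WT and 15.7 to 18.3 in KO with LPS, 28.3 to 30.7 in untreated WT, and 19.8 and 92.2 in untreated KO, where Cd8a was at 6.20 on replicate 1 and -6.34 on replicate 2. Of 8 natural killer cell markers, Eomes was not well above background in any group, and Ncr1 and Klrb1c were on both arrays only in untreated KO. Their sum was 3.06 to 3.29 in untreated WT, 2.22 to 2.41 in untreated KO, 3.53 to 4.04 in WT with LPS and 2.53 to 2.64 in KO with LPS. With LPS 2 of 7 tested (Prf1 and Klrk1) were lower and 2 (Klrb1c and Xcl1) higher in KO cells. Klrb1c was not well above background in either LPS group. Of 8 dendritic cell markers, Xcr1 was not well above background in any group, and with LPS 3 of 7 tested (Clec9a, Batf3 and Zbtb46) were lower and 0 higher in KO cells. Their sum was 119 to 140 in untreated WT, 125 to 144 in untreated KO, 199 to 210 in WT with LPS and 184 to 193 in KO with LPS. Sums are of unlogged levels and follow the brightest markers. Lck and Cd4 made up most of the T cell sum with LPS. Lck was at 4.15 and 4.41 in WT and 2.65 and 2.57 in KO cells with LPS. It rose with LPS by 6.35 in WT and 4.42 in KO cells. Cd3e did not differ detectably between genotypes with LPS (-0.30, limma adjusted p = 0.478). Siglech, at 7.11 and 6.87 in untreated WT, made up most of the dendritic cell sum in each group. With LPS its genotype difference was -0.11 (limma adjusted p = 0.659). Most of the natural killer cell sum came from Nkg7, at 1.36 and 1.53 in untreated WT. Of 8 neutrophil markers, 7 were higher in KO cells in each state, where 2.17% of all genes were higher without and 7.87% with LPS. Retnlg, 1 of the 7, was well above background on both arrays only in untreated KO. The neutrophil sums were 19.2 to 20.9 and 60.9 to 66.6 without and 83.6 to 96.4 and 158 to 172 with LPS, in WT and KO cells respectively. Of 8 mast cell and basophil markers, 4 were tested, with sums of 0.684 to 0.730 and 0.275 to 0.291 without and 0.399 to 0.517 and 0.325 to 0.382 with LPS, in the same order. Kit made up most of the untreated WT sum and was lower in untreated KO cells (-2.39, limma adjusted p = 0.00470). Of 8 stromal markers, 7 were tested. The sums of 6 in WT and KO cells were 1.24 to 1.33 and 1.09 to 1.23 without LPS. With LPS they were 4.14 to 4.73 and 8.40 to 9.05, mostly from Pdgfrb. It was at 1.99 and 1.65 in WT and 2.84 and 2.90 in KO cells with LPS (1.05 higher, limma adjusted p = 0.0176). Dcn, left out of the sums, was lower in KO cells with LPS (-0.79, adjusted p = 0.0331), and no other stromal marker passed there. The part of these other cell types in the members' values was not tested.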

How the data were processed

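RNA of 8 samples was labelled with Cy3 and hybridised to 1-colour Agilent arrays, from 0.5 micrograms per sample per the labels' protocols. Agilent Feature Extraction 10.7.3.1, named in the submitters' processing notes, gave the authors' spot intensity values. These were background-subtracted and detrended within each array per the file headers, and arrays were not scaled to each other. The deposited table of 26670 probes holds log2 values, with array medians of 10.94, 11.10, 10.67, 10.73, 11.11, 11.03, 10.85 and 10.71 (WT untreated, WT LPS, KO untreated, KO LPS, replicates 1 and 2). They matched the log2 processed signal (r of 0.996 or more across probes, median difference 0.0155 or less), so its scale and lack of centring are inferred. How its probes were selected stays unknown, and Il2ra had no fit there.

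Non-control spots without an outlier flag were averaged per probe as log2 and reduced by the array's 75th percentile. A probe was kept if well above background on both arrays of a group (39870 probes). Names came from accessions (26056), symbols (3200) or synonyms (930) of the RefSeq table, or the files (25495). A gene was its brightest probe, and 475 genes lacked an array. A limma 3.58.1 model (R 4.3.3) with 4 group means took in all 8 arrays and all genes (4 residual and 2.3 prior degrees of freedom). Its p-values were adjusted over all genes by Benjamini-Hochberg, with 0.05 as the threshold. It was tested on simulated data.

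The members, gene lists and marker lists were chosen with earlier results of these data known. All members and probes are named, up to 4 called genes per list and comparison, and the 5 nearest genes per member. Alternatives were other scalings, normexp (offset 50), the deposited values, other filters and probe rules, blocks by replicate number or slide column, array weights, trended moderation, a threshold of 0.01, the arrays compared alone, and leaving out each array. Same-numbered replicates did not deviate together (r from -0.187 to 0.027 between groups), so no pairing was used. One marker list is not reported here. The number of arrays limits the precision.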

Additional observations from a re-analysis of the deposited data

Results flagged for a closer look

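The LPS response differed between genotypes by the test of the difference itself for 4 of the 8 members. Of all genes, 4.37% passed that test (1.51% higher, 2.86% lower). The calls depended on the processing. With no scaling between arrays only that of Il2ra was kept, and with the slide column as a fixed block no gene was called. In each of the 4 members the response was smaller in KO cells. As for all 8 members, the 2 KO arrays with LPS lay below the 2 WT arrays with LPS. The difference, KO minus WT, was -2.53 on the log2 scale for the IL-2 receptor chain gene Il2ra, -1.90 for the ligand gene Il15, -1.48 for Il4ra and -1.38 for Il13ra1. The value of Il2ra, whose untreated signals were low, depended on the background correction. With normexp it was -1.66, against -1.77 for Il15. For Il2ra, Il4ra and Il13ra1 the untreated KO arrays also lay above the untreated WT arrays, and for Il15 they did so by 0.03 on average.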

How the results depend on the processing

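In KO against WT cells with LPS, 8 members were called. The count was 5 with arrays centred on their medians, 2 with no scaling, 2 with the deposited values, 4 with no filter on dim probes, 2 with only the arrays compared, 4 with the slide column as a random block and 2 as a fixed block, 4 with array weights, 2 at a threshold of 0.01, and 2 to 7 without 1 array. Without LPS, 1 was called. The count was 2 with quantile normalization, 3 with normexp, 2 with the deposited values, 2 with a filter on all 8 arrays, 4 with trended and robust moderation, 4 with array weights, 0 to 1 without 1 array, and 0 with no filter, averaged probes, only the arrays compared, either column block or a threshold of 0.01. For the difference in response, 4 were called. The count was 1 with no scaling, 2 with no filter, 2 with the column as a random block, 0 as a fixed block, 0 at a threshold of 0.01, and 0 to 6 without 1 array. Where 0 members were called, outside the fits that left out 1 array, 3 to 4 without LPS and 5 to 6 in the difference had an unadjusted limma p under 0.05. Many of all genes did so too. Without LPS these were from 4168 of 27958 (column as a fixed block) to 7603 of 27960 (only the arrays compared). For the difference they were 4357 of 27942 (column as a fixed block) and 6098 of 27945 (threshold of 0.01). The LPS responses had 7 to 8 members called, except 6 in KO cells with the deposited values. Il2ra had no fit there, and Il21r did not pass (0.44, limma adjusted p = 0.0892). The fall of Cul3 in KO cells with LPS was -0.48 with median centring, -0.18 with no scaling and -0.17 with the deposited values, and was called in none of these 3. These signs turned: Il15ra in the difference in response (0.21, quantile normalization), Il15 without LPS (-0.015, median centring, and -0.029, normexp), and Il21r without LPS (0.071, no scaling, and 0.035, deposited values). The cause was not tested. With the replicate number as a block, 0, 3 and 1 members were called in these 3 comparisons, though the numbers do not pair the samples. A fixed column block could not be fitted for the LPS comparisons.

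Over all genes, the alternatives other than each probe by itself called 111 to 2305 between the untreated genotypes (919 in the main analysis), 793 to 5893 with LPS (4573), 10984 to 21847 for LPS in WT (16141), 9278 to 18983 in KO cells (13557) and 0 to 2346 for the difference in response (1221). The 0 came in limma with the slide column as a fixed block (4357 genes at an unadjusted p under 0.05) and without KO LPS replicate 2 (5000).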
